A study of Homo sapiens with 21 samples.

Results

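The genes L1CAM, IGFBP5, SUSD2, AQP3, C4orf19, GJA5, PPM1H and CALB1, 8 in all, were followed across 7 groups of PC-9 cells, out of 20111 genes listed in each experiment. PC-9 is a human lung adenocarcinoma line with an activating deletion in exon 19 of EGFR. All cells were of this line, and all 21 libraries, 3 per group, held polyadenylated RNA. In the first experiment, untreated parental cells, EGFR-low cells and EGFR-high cells were harvested 24 h after seeding. In the second, EGFR-low and EGFR-high cells were treated for 72 h with DMSO, the solvent, or with 1 µM vorinostat (SAHA), an inhibitor of histone deacetylases. The EGFR-low and EGFR-high populations came from the parental cells by 6 rounds of sorting for the lowest or highest 5 to 10% of cells by surface EGFR, so each is a sorted pool of 1 line. The sources used here do not say whether both experiments used the same sort.

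The 8 genes were selected on the untreated EGFR-high and parental libraries. They are all of the genes, 8 of 11305 tested (0.0708%), whose limma adjusted p in that comparison was under 0.05, with 7 higher and 1 lower in EGFR-high cells. Their values in the untreated experiment are therefore a description, and no test of them is given there. A gene counted as tested there if it reached 1 FPKM in 3 of the 9 libraries. Without the EGFR-high libraries IGFBP5 and SUSD2 would not have done so, and they entered by being high there. PPM1H lay just inside that threshold, at 12.4 ± 1.53 FPKM in EGFR-high against 3.42 ± 0.80 FPKM in parental cells (SD, n = 3). MFGE8, named after its values were seen, lay just outside it, at 8.70 ± 1.48 against 2.07 ± 0.95 FPKM. The 12 libraries of the DMSO and SAHA experiment played no part in the choice, and tests are given only there. FPKM are fragment numbers corrected for the length of the transcript and the size of the library. The read depth of the libraries is unknown, so a value near 0 cannot be given a detection limit. In bulk RNA, fewer expressing cells and less RNA per cell cannot be told apart.

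The genes have no single pathway in common by their known roles, but most encode proteins of the cell surface or of the space around it. L1CAM is an adhesion molecule of the immunoglobulin superfamily, first known from growing axons and expressed by many carcinomas. IGFBP5 is a secreted protein that binds insulin-like growth factors, and SUSD2 is a membrane protein with a sushi domain. AQP3 is an aquaporin that carries water and glycerol across epithelial membranes, and GJA5, a connexin, forms gap junction channels, which join the cytoplasm of neighboring cells. PPM1H is a PP2C-type protein phosphatase, and CALB1 (calbindin 1) is an EF-hand protein that buffers calcium in the cytosol. C4orf19 is an older symbol of PGCKA1.

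The sequences before the start sites are shown for the 3 members that moved most closely together, L1CAM, IGFBP5 and GJA5, and for AQP3, whose direction differed between the experiments. Each run gives the 250 bases before a RefSeq start site on GRCh38.p14, 5′ to 3′ on the strand of the gene, here always the minus strand. The windows lie at chrX:153876015-153876264 for L1CAM, chr2:216695550-216695799 for IGFBP5, chr1:147773352-147773601 for GJA5 and chr9:33447594-33447843 for AQP3. Capitals mark matches to any of 6 motifs searched on both strands, and a match on the other strand reads as the reverse complement.
L1CAM: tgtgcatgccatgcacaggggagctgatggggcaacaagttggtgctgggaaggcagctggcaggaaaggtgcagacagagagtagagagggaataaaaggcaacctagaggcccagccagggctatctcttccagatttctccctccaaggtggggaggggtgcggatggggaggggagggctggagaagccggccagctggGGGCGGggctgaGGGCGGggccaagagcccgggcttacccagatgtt
IGFBP5: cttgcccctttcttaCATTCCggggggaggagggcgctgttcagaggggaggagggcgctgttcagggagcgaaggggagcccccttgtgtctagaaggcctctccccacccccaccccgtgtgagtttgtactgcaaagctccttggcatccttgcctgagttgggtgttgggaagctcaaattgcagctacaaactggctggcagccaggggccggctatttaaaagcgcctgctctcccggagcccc
GJA5: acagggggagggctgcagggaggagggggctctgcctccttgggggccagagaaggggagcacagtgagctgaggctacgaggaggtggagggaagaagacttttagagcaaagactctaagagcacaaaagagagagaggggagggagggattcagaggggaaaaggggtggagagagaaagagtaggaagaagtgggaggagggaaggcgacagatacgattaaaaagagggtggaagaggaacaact
AQP3: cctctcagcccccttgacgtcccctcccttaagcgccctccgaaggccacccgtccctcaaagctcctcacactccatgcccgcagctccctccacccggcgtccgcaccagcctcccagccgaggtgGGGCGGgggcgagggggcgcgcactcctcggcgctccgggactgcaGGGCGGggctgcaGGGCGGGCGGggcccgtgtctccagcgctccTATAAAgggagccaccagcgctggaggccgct

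The AP-1 motif was searched as TGANTCA and the cyclic AMP response element as TGACGTCA. The motif of TEAD factors was searched as GGAATG and the GC box as GGGCGG. The E-box was searched as CACGTG and the TATA box as TATAAA, and none of these motifs contains another. Windows of 6 of the 8 genes were searched, 9 windows in all. No window of SUSD2 or CALB1 was searched. The L1CAM window held 2 GC boxes, the IGFBP5 window 1 TEAD match, the upstream GJA5 window no match, and the AQP3 window 4 GC boxes, 2 of them overlapping, and 1 TATA box, 32 to 27 bases before the start. A GC box was present in 42.6% of all 35116 windows of the same length, a TATA box in 10.7%, a TEAD match in 11.9%, an E-box in 6.34%, an AP-1 match in 6.57% and a cyclic AMP response element in 1.65%. The second GJA5 window (chr1:147760603-147760852) held 1 TEAD match, as the IGFBP5 window did. The second L1CAM window (chrX:153875945-153876194) overlapped the first and held the same 2 GC boxes. None of the 6 motifs was in a window of all of L1CAM, IGFBP5 and GJA5. The G and C content of the windows shown for these genes was 62.8%, 61.2% and 55.6%, near the median of 58.0% over all windows, and that of AQP3 was 73.6%. A match describes letters only and is not evidence of a bound site.

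Before the members, the sorted receptor and the identity of the cells were checked. EGFR RNA was 208 ± 76.8 FPKM in parental, 49.1 ± 19.6 FPKM in EGFR-low and 224 ± 56.7 FPKM in EGFR-high untreated cells (SD, n = 3). The EGFR-high libraries, at 161 to 269 FPKM, overlapped the parental ones, at 120 to 261 FPKM, so EGFR RNA did not separate these groups. In DMSO, EGFR was 26.8 ± 14.3 FPKM in EGFR-low and 115 ± 34.9 FPKM in EGFR-high cells (log2 fold change 2.13, adjusted p = 0.000569 by limma). Without the 2 DMSO libraries described next, it was 2.54 (adjusted p = 0.000228 by limma). All 8 epithelial markers reached 1 FPKM in every group, with summed levels of 1943 to 4184 FPKM per library. Of 9 markers of leukocytes, endothelium and fibroblasts, 3 reached 1 FPKM in each group (CD68, CDH5 and COL1A1), and DCN was listed at 0 in every library. Mitochondrial genes held 6.58 to 24.2% of the FPKM of a library.

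A pair of DMSO libraries stood apart. On the first principal component of the second experiment (82.5% of the variance), which separated EGFR-low from EGFR-high libraries, EGFR-low DMSO replicate 1 scored -25.6 against -66.7 to -61.6 in the other EGFR-low libraries. EGFR-high DMSO replicate 3 scored 26.3 against 59.4 to 67.2 in the other EGFR-high libraries. The leukocyte markers PTPRC and CD3E had their highest levels in the same libraries, at 0.805 and 0.937 FPKM in the first and at 0.20 and 0.29 FPKM in the second, and were at most 0.0524 and 0.0447 FPKM in the other 19. The part of these differences in the results was not tested, and values without both libraries are given for EGFR, the members called with DMSO, GJA1 and the family counts. The replicate 1 libraries of SAHA had the largest mitochondrial shares, 22.2% in EGFR-low and 24.2% in EGFR-high cells.

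In untreated cells, L1CAM, SUSD2, AQP3 and GJA5 formed a ladder in which every EGFR-low library was under every parental library and every parental library under every EGFR-high library. L1CAM, the adhesion molecule, was at 0.23, 0.05 and 0.24 FPKM in EGFR-low, 3.39, 2.24 and 1.41 FPKM in parental, and 22.8, 22.7 and 36.0 FPKM in EGFR-high cells. SUSD2 was at 0.25, 0.20 and 0.27 FPKM in EGFR-low, 1.99, 1.51 and 0.96 FPKM in parental, and 8.97, 8.54 and 15.4 FPKM in EGFR-high cells. Both were thus close to 0 in EGFR-low cells. The connexin GJA5 was at 0.53, 0.31 and 0.16 FPKM in EGFR-low, 1.91, 3.24 and 1.14 FPKM in parental, and 8.92, 16.4 and 9.88 FPKM in EGFR-high cells. The channel gene AQP3 was at 0.71, 0.90 and 0.81 FPKM in EGFR-low, 1.33, 1.70 and 1.29 FPKM in parental, and 4.73, 7.57 and 8.28 FPKM in EGFR-high cells. AQP3 had the shortest step between EGFR-low and parental cells, with means that differed 1.79-fold, and L1CAM the longest, at 13.5-fold.

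IGFBP5 and PPM1H set EGFR-high cells apart from both other groups, which overlapped. The growth factor binder IGFBP5 was at 4.30, 5.12 and 4.17 FPKM in EGFR-high cells. It was at 0.32, 0.36 and 0.09 FPKM in parental and 0.42, 0.25 and 0.28 FPKM in EGFR-low cells. IGFBP5 thereby had the largest ratio of EGFR-high to parental means among the 8 genes, 17.7-fold, against 11.6-fold for L1CAM, but its low denominator rests on values under 1 FPKM. The phosphatase PPM1H was at 13.2, 10.6 and 13.3 FPKM in EGFR-high, 4.34, 2.97 and 2.95 FPKM in parental, and 3.67, 2.202 and 3.61 FPKM in EGFR-low cells. Its level in EGFR-low cells was thus that of parental cells within their spread.

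C4orf19 and CALB1 had other orders. C4orf19 was lowest in parental cells, at 1.19, 0.92 and 0.98 FPKM, intermediate in EGFR-low cells, at 2.74, 2.17 and 2.57 FPKM, and highest in EGFR-high cells, at 4.16, 5.14 and 4.29 FPKM, with no overlap. Both sorted populations were thus above the cells they came from. CALB1, the calcium buffer, was the member that was lower in EGFR-high cells, at 6.95, 5.92 and 4.15 FPKM. It was at 41.6, 23.1 and 34.7 FPKM in parental and at 24.1, 19.3 and 20.9 FPKM in EGFR-low cells, which overlapped.

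Set against all genes tested, all libraries of EGFR-high lay above those of parental cells for 7 of the 8 members and below them for 1, where 10.2% and 6.02% of all genes did so. This follows from the choice and nothing is read from it. All EGFR-high libraries lay above those of EGFR-low cells for the same 7 and below for CALB1, against 11.2% and 9.39% of all genes. EGFR-low libraries lay below parental ones for 4 members and above for C4orf19, against 8.02% and 9.07% of all genes. These comparisons share the EGFR-high or parental libraries that chose the members.

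In the second experiment, each member was compared between EGFR-high and EGFR-low cells in libraries that had no part in the choice. With DMSO, L1CAM, IGFBP5 and GJA5 were again far higher in EGFR-high cells, SUSD2, C4orf19 and CALB1 were higher by smaller or less stable amounts, AQP3 was lower, and no difference was called for PPM1H. Of the 8 members, 7 were called, 6 higher and 1 lower, where 51.8% of all 12236 genes tested were called, 20.7% higher and 31.1% lower. Most genes with a difference in this experiment are therefore not members, and a call by itself does not set a member apart. All 8 passed the filter of 1 FPKM in 3 of the 12 libraries. Only AQP3 and PPM1H would have passed it without the EGFR-high libraries, so the other 6 entered the test by being high there.

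L1CAM was at 12.4, 13.0 and 9.23 FPKM in EGFR-high and 2.70, 0.48 and 0.53 FPKM in EGFR-low cells with DMSO, a log2 fold change of 2.61 (standard error, SE, 0.36, adjusted p = 0.000333 by limma). GJA5 was at 8.32, 10.0 and 6.29 FPKM in EGFR-high cells and at 1.91, 0.02 and 0.01 FPKM in EGFR-low cells (log2 fold change 2.65, SE 0.34, adjusted p = 0.000327 by limma). IGFBP5 was at 6.11, 3.88 and 4.47 FPKM in EGFR-high cells and at 1.47, 0.65 and 0.27 FPKM in EGFR-low cells (log2 fold change 1.73, SE 0.23, adjusted p = 0.000327 by limma). The groups did not overlap for any of these genes, and the highest EGFR-low library was each time replicate 1. Without both intermediate libraries the log2 fold changes were 3.18 for L1CAM, 3.32 for GJA5 and 2.02 for IGFBP5, and each stayed called when any 1 library was left out.

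SUSD2 was at 1.89, 2.25 and 1.73 FPKM in EGFR-high and 0.81, 0.64 and 1.18 FPKM in EGFR-low cells (log2 fold change 0.66, SE 0.20, adjusted p = 0.0164 by limma). The ratio of the means was 2.23, where it had been 46.1 in untreated cells. That untreated ratio used the EGFR-high libraries of the choice and an EGFR-low mean of only 0.24 FPKM. The 2 ratios are therefore not like for like. The SUSD2 call was lost without EGFR-low replicate 2 (adjusted p = 0.0692 by limma) or EGFR-high replicate 2 (adjusted p = 0.0617 by limma), and held without both intermediate libraries (log2 fold change 0.70, adjusted p = 0.0438 by limma). C4orf19 was at 1.06, 1.23 and 1.16 FPKM in EGFR-high and 0.32, 0.11 and 0.09 FPKM in EGFR-low cells (log2 fold change 0.88, SE 0.32, adjusted p = 0.0387 by limma). C4orf19 stayed called in only 1 of the 6 fits that left out a library, that without EGFR-low replicate 1, and was not called without both intermediate libraries (adjusted p = 0.0794 by limma).

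AQP3 and CALB1 had the direction opposite to their untreated values. AQP3 was at 1.66, 3.90 and 13.2 FPKM in EGFR-high and 16.3, 42.8 and 26.9 FPKM in EGFR-low cells, a log2 fold change of -2.28 (SE 0.69, adjusted p = 0.0167 by limma). The highest EGFR-high library was replicate 3 and the lowest EGFR-low library replicate 1, the intermediate pair, and without both the log2 fold change was -3.27 (adjusted p = 0.00374 by limma). The AQP3 call was lost without EGFR-low replicate 2, EGFR-high replicate 1 or EGFR-high replicate 2 (adjusted p = 0.0675, 0.0764 and 0.0533 by limma). CALB1 was at 1.08, 8.01 and 3.51 FPKM in EGFR-high and 0.94, 0.18 and 0.16 FPKM in EGFR-low cells (log2 fold change 1.67, SE 0.51, adjusted p = 0.0168 by limma). Its EGFR-high libraries ranged widely, the lowest close to the highest EGFR-low library, and the call was lost without EGFR-low replicate 2, EGFR-low replicate 3 or EGFR-high replicate 2 (adjusted p = 0.0568, 0.0578 and 0.0763 by limma). Without both intermediate libraries CALB1 had a log2 fold change of 1.89 (adjusted p = 0.0326 by limma).

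The level in EGFR-low cells differed more between the experiments than that in EGFR-high cells for both genes. AQP3 was at 0.71 to 0.90 FPKM in EGFR-low cells when untreated and at 16.3 to 42.8 FPKM with DMSO, while EGFR-high cells were at 4.73 to 8.28 and 1.66 to 13.2 FPKM. CALB1 was at 19.3 to 24.1 FPKM in untreated EGFR-low cells and at 0.16 to 0.94 FPKM with DMSO, while EGFR-high cells were at 4.15 to 6.95 and 1.08 to 8.01 FPKM. The experiments differed in harvest time, solvent and separate normalization, and whether they used the same sort is not stated. These differences cannot be told apart, and values were not tested between the experiments.

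PPM1H was at 6.84, 8.78 and 8.71 FPKM in EGFR-high and 8.92, 9.89 and 9.08 FPKM in EGFR-low cells with DMSO. Its libraries did not overlap, by a small margin, but the difference was not called (log2 fold change -0.18, 95% interval -0.65 to 0.28, adjusted p = 0.492 by limma). In untreated cells the EGFR-high mean of PPM1H had been 3.91 times the EGFR-low mean, in EGFR-high libraries that had a part in the choice. By libraries, 6 members lay wholly above in EGFR-high cells and 2 wholly below, where 28.4% and 40.9% of all genes did so.

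**Figure D1:**
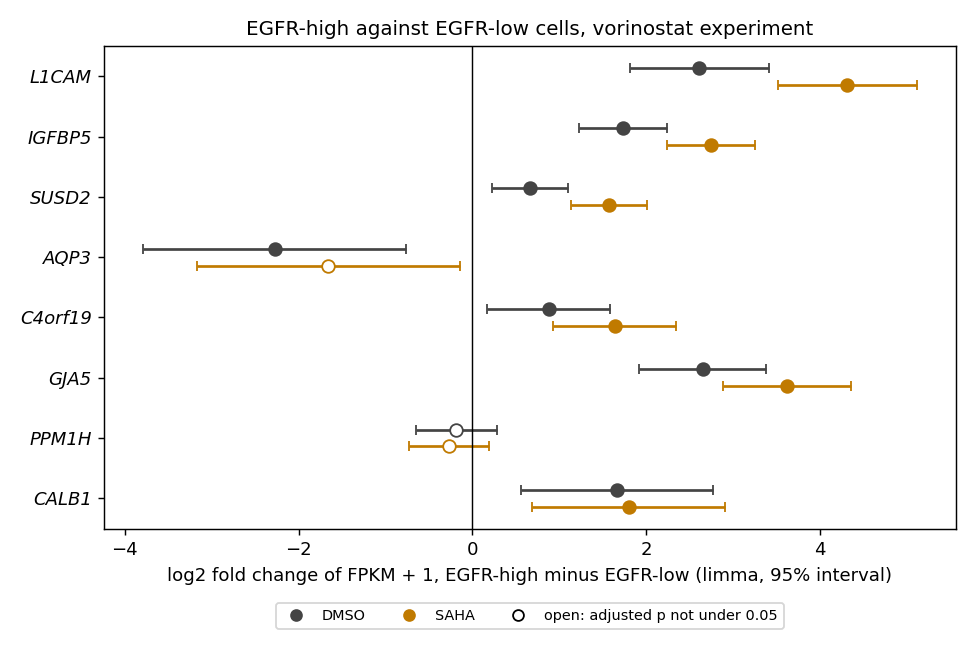
Log2 fold change of FPKM + 1 between EGFR-high and EGFR-low cells (horizontal axis) for each of the 8 genes (vertical axis), with DMSO and with SAHA, 3 libraries per group. Bars are 95% limma intervals and open points missed an adjusted p of 0.05. L1CAM, IGFBP5 and GJA5 lie to the right with both agents, AQP3 to the left and PPM1H close to 0, at -0.18 and -0.27.

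With SAHA, the same 6 genes were higher in EGFR-high cells. These 6 had passed the filter only through the EGFR-high libraries of this experiment, so their direction is not separate support. L1CAM was at 45.5, 24.6 and 29.7 FPKM in EGFR-high and 1.43, 0.51 and 0.25 FPKM in EGFR-low cells (log2 fold change 4.32, SE 0.36, adjusted p = 3.82e-05 by limma). GJA5 was at 10.5, 12.7 and 11.9 FPKM in EGFR-high cells and close to 0 in EGFR-low cells, at 0.06, 0.01 and 0.02 FPKM (log2 fold change 3.62, SE 0.34, adjusted p = 3.82e-05 by limma). IGFBP5 was at 8.87, 7.04 and 7.99 FPKM against 0.15, 0.45 and 0.42 FPKM (log2 fold change 2.74, SE 0.23, adjusted p = 3.82e-05 by limma). These 3 had the largest log2 fold changes of the members with SAHA.

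SUSD2, C4orf19 and CALB1 kept the direction they had with DMSO. SUSD2 was at 1.96, 3.87 and 3.59 FPKM in EGFR-high and 0.18, 0.39 and 0.52 FPKM in EGFR-low cells, a log2 fold change of 1.57 (adjusted p = 6.84e-05 by limma). C4orf19 was at 6.68, 1.49 and 2.14 FPKM against 0.48, 0.16 and 0.15 FPKM, a log2 fold change of 1.64 (adjusted p = 0.00107 by limma), and replicate 1 was the highest library in both groups. CALB1 was at 0.98, 5.70 and 3.85 FPKM against 0.14, 0.24 and 0.09 FPKM, a log2 fold change of 1.80 (adjusted p = 0.00953 by limma). All 6 stayed called in each fit that left out 1 library. Over all genes 59% were called, 22.8% higher and 36.2% lower, and all EGFR-high libraries lay above for 23.5% and below for 37.3% of genes, against 6 and 0 of the 8 members.

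AQP3 was at 4.63, 5.18 and 2.34 FPKM in EGFR-high and 4.18, 30.4 and 21.5 FPKM in EGFR-low cells with SAHA, and the groups overlapped through EGFR-low replicate 1. Its log2 fold change was -1.66 (adjusted p = 0.0574 by limma), which was called with the replicate number as a block (adjusted p = 0.0291 by limma) and without EGFR-low replicate 1 (log2 fold change -2.44, adjusted p = 0.00585 by limma). That library had a mitochondrial share of 22.2%, and the part of this share was not tested. PPM1H was at 7.17, 13.1 and 7.40 FPKM in EGFR-high and 13.7, 9.29 and 10.2 FPKM in EGFR-low cells (log2 fold change -0.27, 95% interval -0.73 to 0.20, adjusted p = 0.295 by limma). It was called, lower in EGFR-high cells, without EGFR-high replicate 2 (adjusted p = 0.0248 by limma).

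The response to SAHA within each population was then examined. No member was called in either population, nor was any other gene. Both intermediate libraries are DMSO libraries, 1 in each population. These comparisons, and the interaction given below, were not run without both. The number of genes called stayed at 0 when any 1 library was left out. Each of those fits still held at least 1 intermediate library, and all groups shared 1 estimate of the spread. They therefore do not show the result without both. In EGFR-high cells 0 of 12236 genes (0%) were called by limma, with 409 at an unadjusted p under 0.05, and in EGFR-low cells 0 (0%) with 115. CDKN1A, a gene widely described as induced by inhibitors of histone deacetylases and named after its values were seen, was at 17.5 to 20.1 FPKM with DMSO and 15.3 to 27.6 FPKM with SAHA in EGFR-low cells, which overlapped. In EGFR-high cells CDKN1A was at 3.17 to 8.93 and 1.79 to 21.7 FPKM, the highest of these in SAHA replicate 1.

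Among the members, L1CAM had the largest difference in EGFR-high cells, where it was at 9.23 to 13.0 FPKM with DMSO and 24.6 to 45.5 FPKM with SAHA, with no overlap. Its log2 fold change was 1.42 (95% interval 0.62 to 2.22), and 1.18 to 1.61 when 1 library was left out. The unadjusted p of L1CAM was 0.00227 and its adjusted p = 0.94 by limma. IGFBP5 was at 3.88 to 6.11 FPKM with DMSO and 7.04 to 8.87 FPKM with SAHA (log2 fold change 0.64, adjusted p = 0.94 by limma), again with no overlap. C4orf19 and GJA5 also had every SAHA library above every DMSO library, with log2 fold changes of 0.86 and 0.48 (adjusted p = 0.94 by limma for each). For C4orf19 the value was 0.38 without SAHA replicate 1, the library with a mitochondrial share of 24.2%. That made 4 of 8 members, where 2.25% of all genes had all SAHA libraries above, but none passed the adjustment over all genes.

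In EGFR-low cells, SAHA libraries overlapped those with DMSO for 7 members. SUSD2 was the exception, at 0.18 to 0.52 FPKM with SAHA and 0.64 to 1.18 FPKM with DMSO (log2 fold change -0.46, adjusted p = 1.00 by limma), and all SAHA libraries lay below for 5.69% of all genes. The difference between the responses of the populations was tested as an interaction, and 0 genes (0%) were called, with 215 at an unadjusted p under 0.05. It was 1.71 for L1CAM (95% interval 0.58 to 2.83), 1.01 for IGFBP5 (0.29 to 1.73) and 0.91 for SUSD2 (0.29 to 1.53) on the log2 scale, each with an adjusted limma p of 0.999. The responses to SAHA of these genes are thus not shown to differ between the populations.

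**Figure D2:**
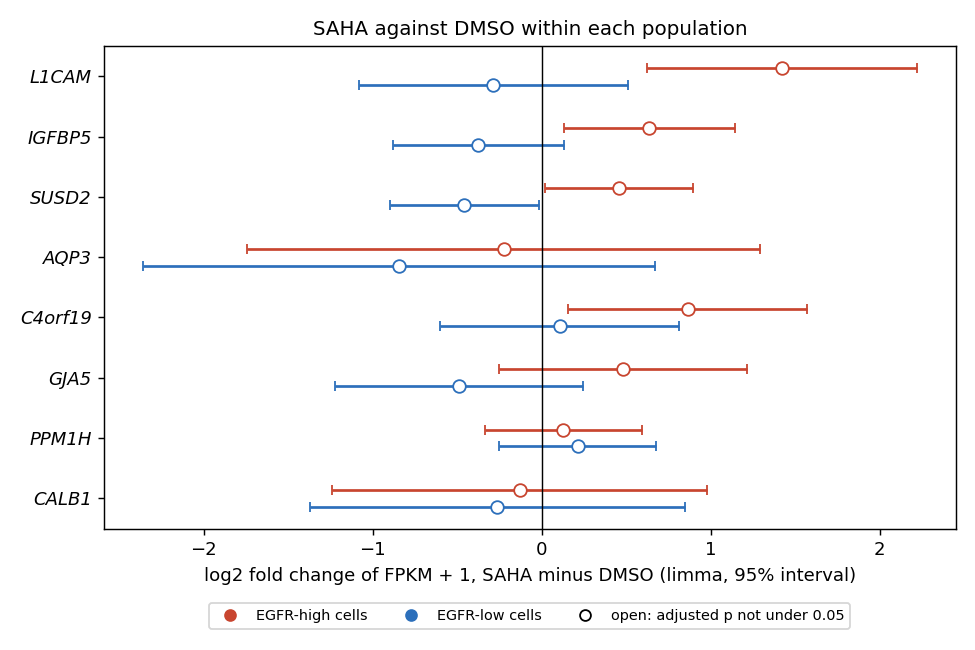
Log2 fold change of FPKM + 1 from DMSO to SAHA (horizontal axis) for the 8 genes (vertical axis) in EGFR-high and EGFR-low cells, 3 libraries per group, with 95% limma intervals. All points are open, as none passed an adjusted p of 0.05, and L1CAM in EGFR-high cells is farthest from 0, at 1.42.

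The members were then compared with each other. Over the 21 libraries, centred within each experiment, L1CAM, IGFBP5 and GJA5 followed each other most closely (Pearson r of log2(FPKM + 1) 0.95 to 0.96 for the 3 pairs). The libraries that chose the members are among these 21, and libraries of a group are cells of the same population. Whether the libraries of a sorted group share a sort is not stated. Over the 12 DMSO and SAHA libraries alone, the 3 pairs had r of 0.97 to 0.98. CALB1 followed GJA5 in these 12 libraries (r = 0.85) but not over all 21 (r = 0.23), since it was lowest in untreated EGFR-high cells. AQP3 and L1CAM had r of -0.79 over the 12 and -0.17 over the 21 libraries. PPM1H followed SUSD2 over the 21 libraries (r = 0.72) and not over the 12 (r = -0.34). These values mostly restate the separation of the populations and have no test.

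The intermediate libraries also lay between the populations for several members. EGFR-low DMSO replicate 1 had the highest level of L1CAM, IGFBP5, C4orf19, GJA5 and CALB1 among the 3 EGFR-low DMSO libraries and the lowest of AQP3, the direction of the EGFR-high cells each time. EGFR-high DMSO replicate 3 had the lowest level of L1CAM, SUSD2 and GJA5 and the highest of AQP3 in its group. GJA5, for example, was at 1.91 FPKM in the first of these libraries, at most 0.06 FPKM in the other EGFR-low libraries, 6.29 FPKM in the second and 8.32 to 12.7 FPKM in the other EGFR-high libraries.

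**Figure D3:**
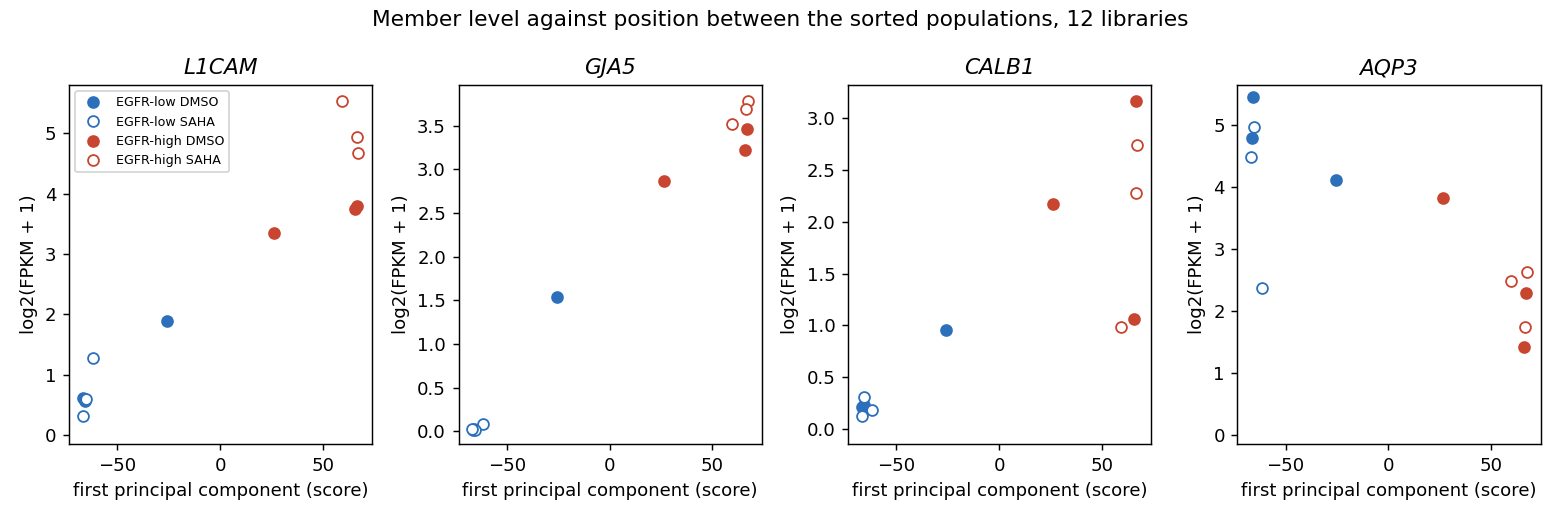
Log2(FPKM + 1) of L1CAM, GJA5, CALB1 and AQP3 (vertical axes) against the score on the first principal component (horizontal axes) in the 12 libraries of the DMSO and SAHA experiment, filled with DMSO and open with SAHA. The DMSO libraries at -25.6 and 26.3 are intermediate for GJA5, at 1.91 and 6.29 FPKM.

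The genes with patterns most like those of the members, among 11118 genes that passed the filter in both experiments, were ranked by the same r over the 21 libraries. DNM1, a dynamin, and the keratin gene KRT15 were most like L1CAM (r = 0.97 and 0.96). FAM49A was the gene most like both IGFBP5 (r = 0.97) and GJA5 (r = 0.99), at 6.67 FPKM in untreated EGFR-high, 0.38 FPKM in EGFR-low DMSO and 3.67 FPKM in EGFR-high DMSO cells on average. The next were GJA5 itself for IGFBP5 (r = 0.96) and DLG4 for GJA5 (r = 0.96). TLE2 and NPTXR were most like SUSD2 (r = 0.95 and 0.94), and GNAO1 and CPA4 most like C4orf19 (r = 0.90 for each).

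The genes most like AQP3 were HN1L and CERS4, a ceramide synthase (r = 0.89 for each). CERS4 averaged 0.75 FPKM in untreated EGFR-low and 9.29 FPKM in untreated EGFR-high cells. With DMSO it averaged 39.4 and 8.80 FPKM in the same populations. It thus turned over in the same way as AQP3, which follows from its choice by correlation with AQP3 in these libraries. ZUFSP and ISCU, a scaffold for iron-sulfur clusters, were most like CALB1 (r = 0.89 for each). PPM1H had the loosest partners, PADI3 and KIAA1462 (r = 0.84 and 0.83).

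Genes of the families to which the members belong were counted from fixed lists. Over 7 family lists with 131 genes, 130 were listed and 76 were tested in the second experiment. With DMSO, 25 of these (32.9%) were higher and 26 (34.2%) lower in EGFR-high cells, where 20.7% and 31.1% of all genes were. Without both intermediate libraries 24 were higher and 27 lower. With SAHA 30 (39.5%) were higher and 29 (38.2%) lower, where 22.8% and 36.2% of all genes were. No family gene was called between SAHA and DMSO in either population, with 1 at an unadjusted p under 0.05 in EGFR-high and 2 in EGFR-low cells.

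Of 15 tested genes of the L1 family and its partners, 3 were higher and 7 lower in EGFR-high cells with DMSO, with a median log2 fold change of -0.58 against -0.12 over all genes. NRCAM, a close relative of L1CAM, was higher, by 1.73 on the log2 scale (adjusted p = 0.000327 by limma), at 4.09 against 0.57 FPKM on average. Untreated NRCAM was at 21.5 to 31.2 FPKM in EGFR-low and 3.45 to 6.58 FPKM in EGFR-high cells, the other way around from L1CAM. ANK3, the ankyrin that anchors L1 proteins to the membrane skeleton, was lower in EGFR-high cells with DMSO (log2 fold change -1.85, adjusted p = 0.000327 by limma), and so was NRP2, a semaphorin co-receptor (-1.56, adjusted p = 0.00734 by limma).

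Of 12 tested genes of the insulin-like growth factor axis, 5 were higher and 4 lower with DMSO, with a median log2 fold change of 0.27. The 3 with the largest changes were all binding proteins like IGFBP5. IGFBP3, IGFBP6 and IGFBP4 were higher in EGFR-high cells by 2.95, 2.66 and 2.51 on the log2 scale (adjusted p = 0.000741, 0.00056 and 0.00046 by limma). IGFBP3 averaged 156 FPKM in EGFR-high and 24.4 FPKM in EGFR-low cells with DMSO, and 290 and 3.95 FPKM with SAHA (log2 fold change 5.92, adjusted p = 3.82e-05 by limma). Not every binding protein went this way. With DMSO, IGFBP2 was at 116 to 143 FPKM in EGFR-low and 57.3 to 78.2 FPKM in EGFR-high cells. In untreated cells IGFBP3 and IGFBP4 were also higher in EGFR-high than in EGFR-low cells. Untreated IGFBP6 averaged 41.0 FPKM in EGFR-low and 23.2 FPKM in EGFR-high cells, which overlapped.

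Of 9 tested connexins and gap junction partners, 5 were higher and 3 lower with DMSO, with a median log2 fold change of 0.51. GJB5 was higher in EGFR-high cells like GJA5, by 2.77 on the log2 scale (adjusted p = 0.000424 by limma). GJA1, another connexin, was lower (log2 fold change -3.10, adjusted p = 0.000327 by limma), at 9.33 to 14.3 FPKM in EGFR-low and 0.01 to 2.37 FPKM in EGFR-high cells with DMSO. The highest of these EGFR-high values was that of the intermediate library, and without both such libraries the log2 fold change of GJA1 was -3.84 (adjusted p = 2.2e-06 by limma). In untreated cells GJA1 was at most 0.04 FPKM in every library. None of the other 13 aquaporins passed the filter in either experiment, so AQP3 was the only aquaporin tested.

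Of 18 tested PP2C phosphatases, the family of PPM1H, 3 were higher and 5 lower with DMSO, with a median log2 fold change of -0.06. PDP1 and PPM1F were lower and PPM1L higher, with log2 fold changes of -1.48, -1.31 and 1.29 (adjusted p = 0.0163, 0.000335 and 0.000344 by limma). Of 14 tested EF-hand calcium binders, 7 were higher and 3 lower, with a median of 0.33. CALB2 (calretinin), the closest relative of CALB1, was higher in EGFR-high cells with DMSO by 3.09 (adjusted p = 0.00172 by limma), at 144 against 19.9 FPKM on average. In untreated cells CALB2 averaged 177 FPKM in EGFR-low and 170 FPKM in EGFR-high cells. RCN3 was lower and EFHD1 higher, with log2 fold changes of -1.68 and 1.62 (adjusted p = 0.000921 and 0.00673 by limma). Of 8 tested sushi domain genes, 2 were higher and 4 lower, with a median of -0.69, among them SRPX2 (-1.89) and CD55 (-1.27), both lower, and SEZ6L2 (1.31), higher (adjusted p = 0.000558, 0.00664 and 0.000327 by limma).

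With SAHA the counts of higher and lower genes were 6 and 8 for the L1 list, 5 and 3 for the growth factor list, 5 and 3 for the connexins, 4 and 6 for the phosphatases, 8 and 4 for the EF-hand list and 2 and 5 for the sushi list. PPM1E, a phosphatase, was among the genes that were lower in EGFR-high cells with SAHA (log2 fold change -1.78, adjusted p = 0.000193 by limma). Of the 8 epithelial markers, 3 were higher and 2 lower in EGFR-high cells with DMSO. KRT8 and KRT19, keratins of simple epithelia, were higher and CDH1, E-cadherin, lower (log2 fold changes 1.46, 1.31 and -1.06, adjusted p = 0.000613, 0.000468 and 0.000462 by limma). None of the 3 tested markers of other cell types was called by limma between EGFR-high and EGFR-low cells, with 1 at an unadjusted p under 0.05 with DMSO and 0 with SAHA.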

How the data were processed

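The data are polyA-selected RNA-seq of PC-9 cells, 9 untreated libraries and 12 treated with DMSO or SAHA, prepared with a Roche Kapa kit. The submitters' processing notes name STAR 2.5.1b, Cufflinks 2.2.1, DESeq2 1.10.1 and the build hg19. The deposited values were treated as FPKM made by the authors with Cufflinks, a unit inferred from the values, whose sums of 467897 to 592942 per library are not read counts. The depth is unknown. FPKM divides by all mapped fragments, so a few abundant genes can shift the rest.

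The members, gene lists and motifs were chosen with earlier results of these data known. The genes named are the members, EGFR, up to 3 called genes with the largest change per list and comparison, and the 2 genes most correlated with each member. Some genes that this rule names are not reported here. MFGE8, CDKN1A, IGFBP2 and the levels of PTPRC and CD3E were singled out after their values were seen. A gene was tested in an experiment if 3 or more of its libraries had 1 FPKM or more. The model was that of limma 3.58.1 (R 4.3.3) on log2(FPKM + 1), with 1 mean per group, eBayes with trend and Benjamini-Hochberg adjustment over all genes. A fold change on this scale understates that of low genes. A call is an adjusted p under 0.05. The experiments were normalized separately and never tested against each other.

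The study calls replicates independent experiments at different times. After subtraction of group means, libraries with the same number correlated at 0.353, 0.351 and 0.163 between EGFR-high and EGFR-low cells with SAHA, and at 0.267, 0.302 and 0.329 between DMSO and SAHA in EGFR-low cells. The numbers were taken to pair these, but the fits reported did not use the pairing, and the block was an alternative only. The other comparisons had at least 1 pair under 0.1. Untreated parental and EGFR-high libraries, for example, correlated at 0.434, 0.757 and -0.00229. Alternatives were pseudocounts of 0.1 and 5, no filter, a filter of 5 FPKM, median-of-ratios and quantile scaling, only the compared groups, the replicate number as a block, no trend, and leaving out each library. Promoter windows came from RefSeq on GRCh38.p14, and no coordinates of the authors' build were used. Python 3.11.15 and matplotlib 3.10.9 were used for the rest.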

Additional observations from a re-analysis of the deposited data

How the results depend on the processing

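The EGFR-high against EGFR-low differences of L1CAM, IGFBP5 and GJA5 stayed called, in the same direction, under every alternative run with DMSO and with SAHA. The set of genes called between untreated EGFR-high and parental cells was less stable. Their number was 15 with no filter, 3 with a filter of 5 FPKM and 2 with only the compared groups. With 1 library left out the number was 2 to 8, of 8 in the fit reported. It was 2 without parental replicate 3, EGFR-high replicate 2 or EGFR-high replicate 3, 3 without parental replicate 1 and 4 without EGFR-high replicate 1. With a filter of 5 FPKM, 4 members were called with DMSO and 3 with SAHA, as fewer of the 8 were then tested. When 1 library was left out, 3 to 7 members were called with DMSO, 3 without EGFR-low or EGFR-high replicate 2. In the fits reported, 51.8% of all genes were called with DMSO and 59% with SAHA. The shares of all genes in these alternatives are not given here. A count of members called does not by itself set them apart. C4orf19 with DMSO was not called with a pseudocount of 5 (adjusted p = 0.207) or no filter (adjusted p = 0.065), and AQP3 with SAHA was called with a pseudocount of 5 (adjusted p = 0.05, rounded from just under the threshold). Without a filter 1 gene was called between SAHA and DMSO in EGFR-low cells, and 1 in the interaction. The causes were not tested.

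The differences between SAHA and DMSO that changed sign were all uncalled. When 1 library was left out, that in EGFR-high cells ranged from -0.77 to 0.43 for AQP3, -0.13 to 0.27 for PPM1H and -0.67 to 0.39 for CALB1. In EGFR-low cells it ranged from -0.56 to 0.15 for L1CAM, -0.0132 to 0.20 for C4orf19 and -0.75 to 0.0154 for GJA5. The interaction ranged from -0.17 to 1.28 for AQP3, -0.34 to 0.06 for PPM1H and -0.41 to 0.65 for CALB1, which was -0.0118 with a pseudocount of 5. With the replicate block 7 members were called with DMSO and 7 with SAHA. Without it, 51.8% and 59% of all genes were called, and the shares with the block are not given here, so the member counts have no matching share. The block changed no call of a member other than that of AQP3 with SAHA. With the fragments behind each value unknown, levels under 1 FPKM, such as those of GJA5 and IGFBP5 in EGFR-low cells, have no counting error attached.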
